A study of Mus musculus with 6 samples.

Results

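The urea cycle enzymes and the mitochondrial carriers that serve them were examined as 9 genes, Cps1, Otc, Ass1, Asl, Arg1, Nags, Slc25a13, Slc25a15 and Gls2. The members were all probe sets on the arrays that the platform annotation gives to 1 of these symbols alone, which are 11 of the 45037 probe sets tested. They cover 8 of the 9 genes, and Gls2 is not analysed here. Each gene was represented by its brightest probe set, taken over all 6 arrays, as 1 of 18193 genes. The arrays carried total RNA of whole fetal mouse livers at E18.5, close to birth. The 3 null livers are given as HNF4LoxP/LoxP AlfpCre, with both Hnf4 alleles flanked by loxP sites, and the 3 control livers as HNF4LoxP/+AlfpCre, with 1 flanked allele. Both groups carry the AlfpCre transgene, which drives Cre recombinase from albumin and alpha-fetoprotein control elements and so acts in the hepatocyte lineage, while blood-forming, endothelial and mesenchymal cells of the liver keep their alleles. All changes below are therefore against livers with Cre and 1 flanked allele, and not against wild-type livers. The livers are called Null_61, Null_1191 and Null_1195, and Control_8, Control_1192 and Control_1193, from their titles. The labels do not say whether the livers came from separate litters, and the p-values cover no more than the spread among these 6 arrays.

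The urea cycle turns ammonia, which is toxic, into urea for excretion, and the complete cycle runs in hepatocytes. Its first steps lie in the mitochondrion: NAGS makes N-acetylglutamate, which CPS1 needs to join ammonia and bicarbonate into carbamoyl phosphate, and OTC transfers this to ornithine to give citrulline. In the cytosol ASS1 joins citrulline to aspartate, ASL splits the product into arginine and fumarate, and ARG1 cuts arginine into urea and ornithine. The carrier encoded by Slc25a15 brings ornithine into the mitochondrion in exchange for citrulline, and the carrier encoded by Slc25a13, citrin, exports aspartate. Gls2 encodes the liver form of glutaminase, which releases ammonia from glutamine. Hnf4a encodes HNF4 alpha, a nuclear receptor bound at many promoters active in hepatocytes.

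Transcripts of the cycle were lower in the null livers at nearly every step that could be read. Of the 8 genes measured, 7 fell at an adjusted p under 0.05 and 0 rose, where 7.85% of all genes fell and 1.56% rose. The falls were very uneven. Otc went down to the background of the arrays, Asl, Slc25a13 and Arg1 fell between 3.28-fold and 5.77-fold, and Cps1 and Slc25a15 fell 1.71-fold and 1.68-fold. Nags, a dim gene, also fell, and the dim probe set that is named for Ass1 alone did not pass the test. A brighter probe set listed under Ass1 and Gm5424 together fell and is not counted. In the 7 genes that fell, all 3 nulls lay below all 3 controls, as was so for 17.9% of all genes, and 0 of the 8 had all nulls above all controls, beside 13.2% of all genes. The median log2 change of the 8 genes was -1.24, beside 0.01 over all genes. Of the 11 probe sets, 9 fell, beside 5.55% of all probe sets.

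Values given per array are the deposited probe-set intensities on a linear scale, and log2 changes are the null mean minus the control mean of log2 values, taken with negatives at 0 and a pseudocount of 32 (this shrinks the change of dim genes). Adjusted p-values come from limma across all 45037 probe sets, and ± marks the SD of 3 arrays. A fold is 2 to the power of the log2 change and is left out where either mean is under 99.5, the highest of the array medians. Probe sets bind their targets with different strength, so levels are compared between groups only and not between genes.

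Promoters of 3 genes with a large (Otc), an intermediate (Slc25a13) and a small (Nags) called change are shown because the members differed so widely in response. The RefSeq table for GRCm38.p6 holds 6 promoters for 5 of the 9 genes (Otc, Ass1, Nags, Slc25a13 and Slc25a15), of which the 250 bases before the start site were searched. The motifs, taken on both strands, were CAAAGTNCA, the core bound by HNF4, and the same core without its first base, AAAGTNCA, which is contained in the longer one. The remaining motif was TTGCNNAA, a pattern bound by C/EBP factors. They were chosen after the promoters had been read. Below, each window is on the gene's own strand and capitals mark a match. Otc lies at chrX:10252055-10252304 (+ strand), Slc25a13 at chr6:6217174-6217423 (- strand) and Nags at chr11:102145263-102145512 (+ strand).
Otc: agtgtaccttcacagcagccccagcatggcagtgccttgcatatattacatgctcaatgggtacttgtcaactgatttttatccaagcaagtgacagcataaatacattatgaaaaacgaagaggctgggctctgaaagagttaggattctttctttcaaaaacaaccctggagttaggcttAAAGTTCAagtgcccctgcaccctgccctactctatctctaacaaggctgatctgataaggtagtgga
Slc25a13: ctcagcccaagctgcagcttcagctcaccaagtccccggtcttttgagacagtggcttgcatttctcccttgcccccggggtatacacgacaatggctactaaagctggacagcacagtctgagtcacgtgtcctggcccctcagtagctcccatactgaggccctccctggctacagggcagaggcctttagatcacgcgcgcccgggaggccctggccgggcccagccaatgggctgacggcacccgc
Nags: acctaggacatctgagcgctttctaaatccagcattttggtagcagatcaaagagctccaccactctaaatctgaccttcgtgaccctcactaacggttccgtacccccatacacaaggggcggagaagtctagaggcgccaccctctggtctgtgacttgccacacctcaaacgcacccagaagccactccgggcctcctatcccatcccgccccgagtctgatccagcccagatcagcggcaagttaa
The match in Otc begins 68 bases before the start site and reads AAAGTTCA. AAAGTNCA is found in 3.53% of 32851 such windows, CAAAGTNCA in 1.19% and TTGCNNAA in 9.56%. None of the other 5 promoters of these genes holds any of the 3 motifs, and the match in Otc is the only one among the 6. CAAAGTNCA itself is in 0 of the 6, Otc included. Since the motifs were chosen with these windows read, the single match is a description and no test. Otc also had the lowest share of G and C of the 6 windows, 43.6%, beside 75.6% in Ass1 and a median of 52.4% over all windows.

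The entry of nitrogen into the cycle was the first step examined. Cps1, an abundant enzyme of liver mitochondria, read 3187, 3922 and 5769 in Null_61, Null_1191 and Null_1195, against 6938, 6764 and 7819 in Control_8, Control_1192 and Control_1193. The nulls were spread more widely than the controls, and Null_1195 came closest to them. The means were 4293 ± 1331 in null livers and 7174 ± 566 in control livers, which is a log2 change of -0.78 (standard error 0.19, adjusted p = 0.0443). This call was marginal. It was lost without Control_8, Control_1192, Control_1193 or Null_1191 (adjusted p = 0.118, 0.128, 0.152 and 0.152), though the log2 change stayed between -0.82 and -0.71, and it was kept without Null_61 or Null_1195. Among the 4 arrays other than Null_61 and Control_8 the log2 change was -0.61 (adjusted p = 0.0711). The highest value on any array was 12608, so the Cps1 controls lay in the upper part of the range.

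Nags, whose product makes the obligatory activator of CPS1, read 103, 86.6 and 71.8 in Null_61, Null_1191 and Null_1195, against 162, 143 and 161 in Control_8, Control_1192 and Control_1193. The groups did not overlap, but the null values lay around the median of the arrays, so no fold is given. The log2 change was -0.66 (standard error 0.13, adjusted p = 0.0195). The call was lost without any 1 of Control_8, Control_1192, Control_1193, Null_1191 and Null_1195 (adjusted p from 0.0611 to 0.0851).

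The next mitochondrial step showed the greatest change of the cycle. Otc, an X-linked gene, read 22.2, 43.1 and 48.4 in Null_61, Null_1191 and Null_1195, against 1298, 1327 and 1141 in Control_8, Control_1192 and Control_1193. All 3 null values lay below the median of their arrays, where a transcript near the background and an absent one look alike, while every control was bright. The log2 change was -4.22 (standard error 0.17, adjusted p = 1.18e-06). A second bright probe set, 1436615_a_at, read -8.48, -4.03 and -9.94 in Null_61, Null_1191 and Null_1195, against 1202, 1090 and 876 in Control_8, Control_1192 and Control_1193. Since null values below 0 were set to 0, its test holds no spread among the nulls (log2 change -5.08, adjusted p = 2.38e-07). The remaining Otc probe set, 1425540_at, was at the background in both groups, at no more than 19.3 in null livers and 33.6 in control livers, and did not pass the test (adjusted p = 0.189). By Xist and Y-linked probe sets, Null_1191, Null_1195 and Control_8 read as female and the other 3 livers as male, and with embryo sex as a term the log2 change of Otc was -4.32 (adjusted p = 7.71e-06).

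Both carriers of the inner mitochondrial membrane fell. Slc25a13, the aspartate and glutamate carrier citrin, read 380, 266 and 315 in Null_61, Null_1191 and Null_1195, against 1384, 1305 and 1296 in Control_8, Control_1192 and Control_1193. The groups lay far apart beside the spread within each, and the fall was 3.89-fold (log2 change -1.96, standard error 0.14, adjusted p = 3.85e-05). Slc25a15, the ornithine and citrulline carrier, read 534, 485 and 555 in Null_61, Null_1191 and Null_1195, against 839, 930 and 935 in Control_8, Control_1192 and Control_1193. Its fall was smaller but its nulls were tightly grouped, with a log2 change of -0.75 (standard error 0.11, adjusted p = 0.00369). The dimmer Slc25a15 probe set, 1420966_at, fell too, with 58.6 ± 10.2 in null livers and 157 ± 35.1 in control livers (log2 change -1.05, adjusted p = 0.00491).

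The paralogs of these carriers did not pass the test. Slc25a12, which encodes aralar, the aspartate and glutamate carrier of tissues such as brain and muscle, averaged 254 ± 31.0 in null livers and 251 ± 44.9 in control livers (log2 change 0.02, adjusted p = 0.962). Slc25a2, which encodes another ornithine carrier, was below the array medians in both groups, at 53.9 ± 19.2 in null livers and 57.2 ± 10.2 in control livers. Whether the change of Slc25a13 differed from that of Slc25a12 was not tested as such. Their 95% intervals were -2.27 to -1.65 for Slc25a13 and -0.33 to 0.37 for Slc25a12.

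The cytosolic enzymes divided by probe set. Asl, argininosuccinate lyase, read 148, 93.5 and 77.4 in Null_61, Null_1191 and Null_1195, against 751, 725 and 768 in Control_8, Control_1192 and Control_1193. The controls agreed closely, and the nulls lay near the array medians, with Null_61 the highest of them. The fall was 5.77-fold (log2 change -2.53, standard error 0.18, adjusted p = 4.45e-05). Arg1, the liver arginase, read 733, 668 and 1364 in Null_61, Null_1191 and Null_1195, against 2525, 3245 and 3107 in Control_8, Control_1192 and Control_1193. Null_1195 stood well above the other nulls, and all 3 stayed below the controls. The fall was 3.28-fold (log2 change -1.71, standard error 0.24, adjusted p = 0.0029).

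Macrophages can also express Arg1. Of 7 macrophage and Kupffer cell markers 3 rose (Adgre1, Clec4f and Timd4) and 0 fell, beside 1.56% and 7.85% of all genes. The 7 markers had summed intensities of 3694 to 5233 in null livers and 2668 to 3023 in control livers, with 0 markers at or below 0 on any array. These sums include Marco, which read 1425, 417 and 375 in Null_61, Null_1191 and Null_1195. Its controls read 318, 158 and 131 in Control_8, Control_1192 and Control_1193, and it did not pass the test (adjusted p = 0.09985). A dimmer Marco probe set, 1458297_s_at, was higher in null livers (log2 change 1.35, adjusted p = 0.04645) and is not counted. The part of macrophages in the Arg1 signal was not tested. Arg2, the mitochondrial arginase found mainly outside the liver, averaged 61.6 ± 14.7 in null livers and 47.3 ± 24.0 in control livers, below the array medians in both groups (adjusted p = 0.524).

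Ass1, argininosuccinate synthase, could be read only in part. The probe set named for it alone, 1459937_at, read 135, 156 and 166 in Null_61, Null_1191 and Null_1195, against 132, 127 and 136 in Control_8, Control_1192 and Control_1193. This signal was dim, at 127 to 166 on arrays with medians of 91.8 to 99.5. The groups overlapped, and the log2 change was 0.17 with a 95% interval of -0.10 to 0.44 (adjusted p = 0.468). A different probe set, 1416239_at, is listed under Ass1 and Gm5424 together and is therefore not a member and not counted. It read 1220, 1164 and 1097 in Null_61, Null_1191 and Null_1195, against 5818, 4075 and 5221 in Control_8, Control_1192 and Control_1193. That signal fell 4.21-fold (log2 change -2.07, standard error 0.14, adjusted p = 2.63e-05). The intervals of the 2 probe sets do not meet, at -0.10 to 0.44 for 1459937_at and -2.38 to -1.76 for 1416239_at, and the annotation does not settle which of the 2 listed genes the bright signal came from.

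**Figure D1:**
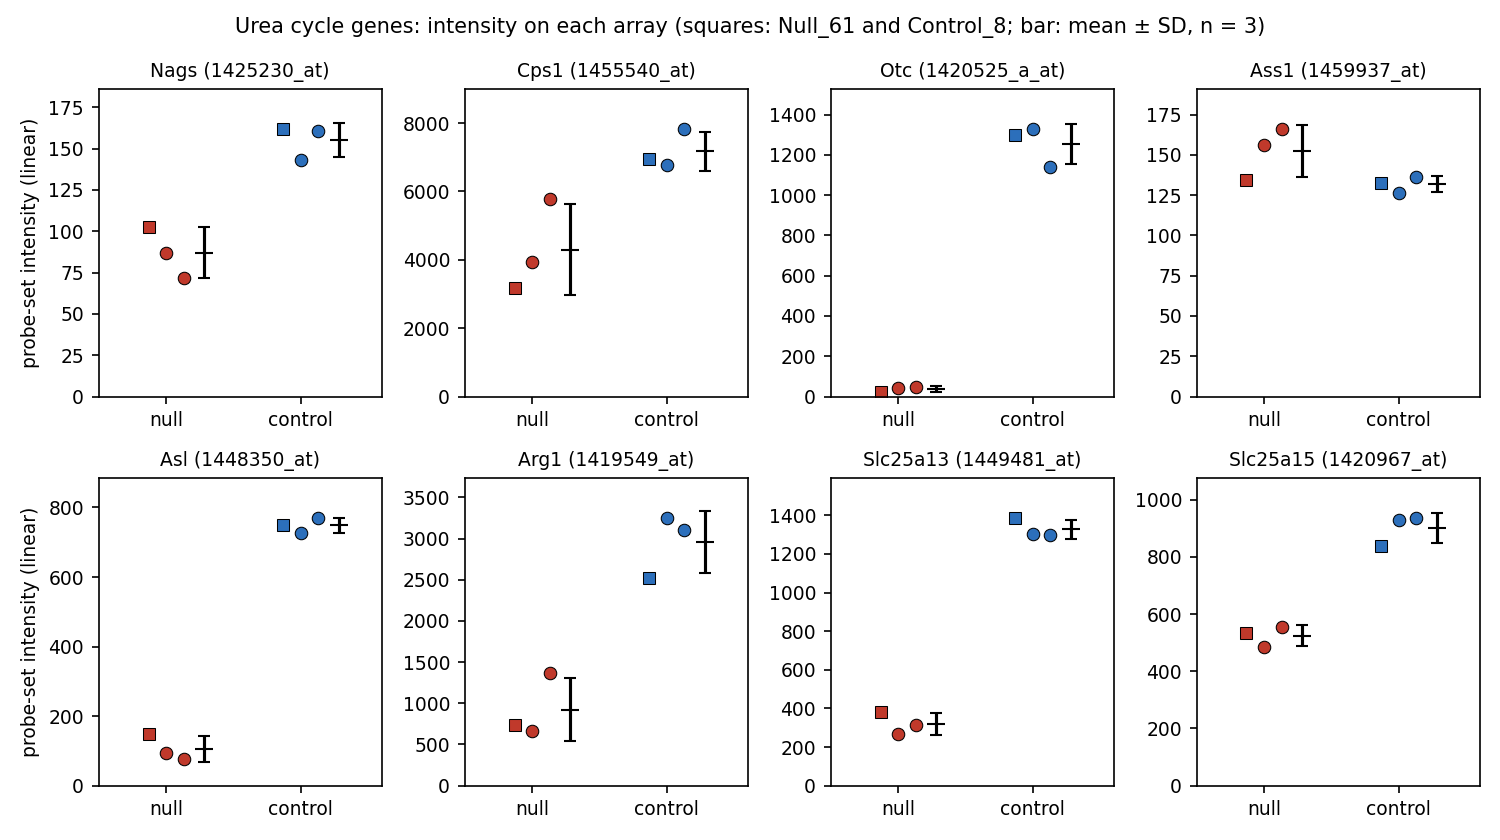
Probe-set intensity (linear, each panel from 0) of the 8 measured urea cycle genes on each array, null livers left in red and control livers right in blue, with squares for Null_61 and Control_8 and bars for the mean ± SD of 3 arrays. The null and control points do not overlap in 7 panels, Otc nulls lie at 22.2 to 48.4, and the Ass1 groups overlap.

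**Figure D2:**
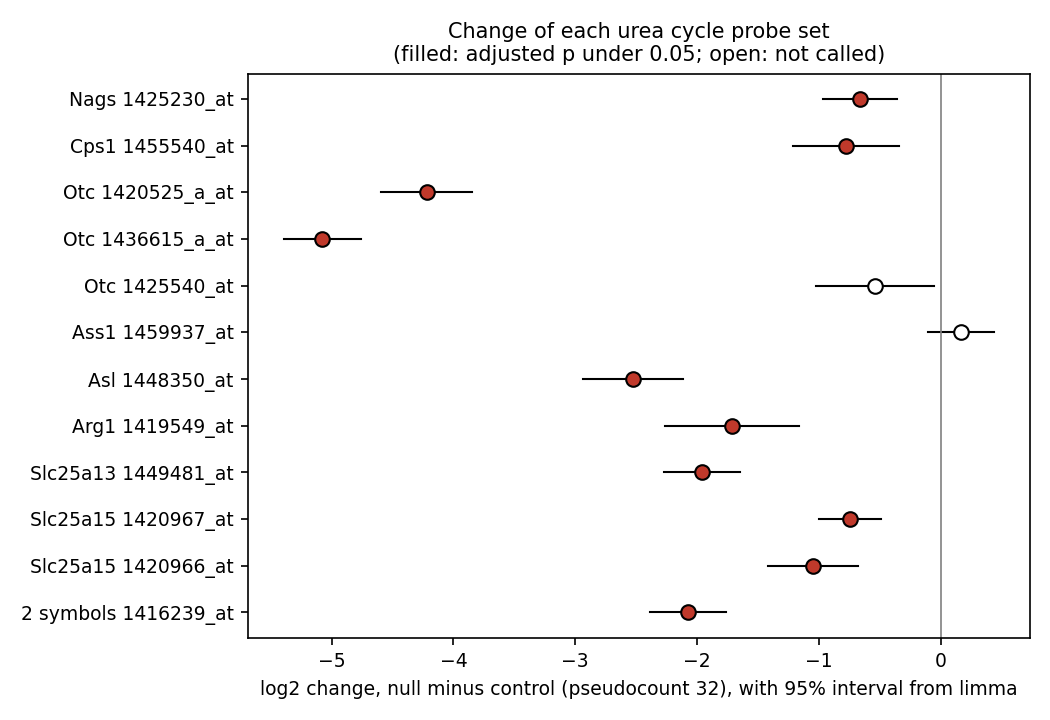
Log2 change, null minus control with a pseudocount of 32, of the 11 urea cycle probe sets and of 1416239_at, which carries 2 symbols. Lines are 95% intervals from limma and filled points passed the test, with log2 changes from -5.08 to -0.66 among the 9 filled member points.

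The 3 null livers did not keep the same order from gene to gene. Null_1195 was the highest null in 5 of the 8 genes, Cps1, Otc, Ass1, Arg1 and Slc25a15, but the lowest in Asl and Nags. Null_61 was the highest null in Asl, Nags and Slc25a13 and the lowest in Cps1, Otc and Ass1. Against the control mean, Null_61, Null_1191 and Null_1195 had median log2 differences of -1.44, -1.48 and -0.97 over the 8 genes. The widest spread was in Arg1, with log2 differences of -1.96, -2.09 and -1.09 in Null_61, Null_1191 and Null_1195, and in Cps1, with -1.16, -0.86 and -0.31. In Slc25a15 the same differences were -0.72, -0.85 and -0.67. The probe sets of Hnf4a did not order the nulls alike. Null_61, Null_1191 and Null_1195 read 1778, 1562 and 2778 in the brightest one, where the controls read 2607 to 2877. Null_1195 was also the highest null in 1421983_s_at, and Null_61 was the highest in 1427000_at and 1450447_at, and in these 3 probe sets every null lay below every control.

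**Figure D3:**
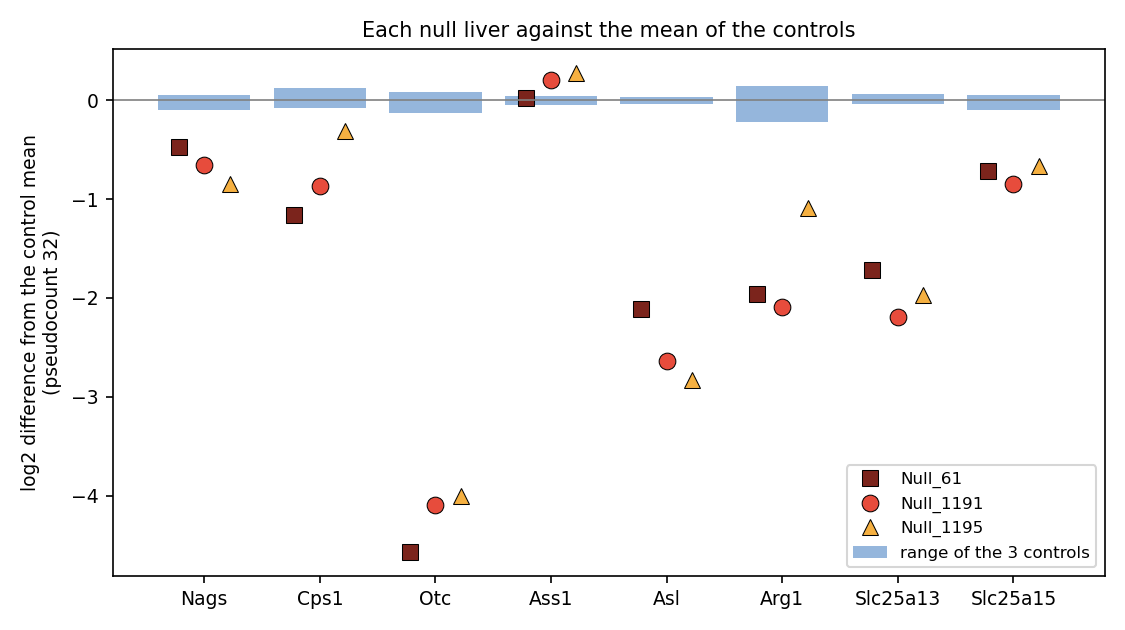
Log2 difference (pseudocount 32) of each null liver from the mean of the controls for the 8 urea cycle genes, with blue bands for the range of the 3 control livers. Null_1195 lies above the other nulls in Cps1 and Arg1 (-0.31 and -1.09) and below them in Asl and Nags (-2.83 and -0.85).

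A few features of the whole series bear on these values. The array medians were close, at 91.8 to 99.5. Hnf4a itself was reduced but present, at 2039 ± 649 in null livers and 2767 ± 142 in control livers in its brightest probe set, which did not pass the test (adjusted p = 0.194), while 2 of its 4 probe sets did. Its log2 change of -0.48 became -0.72 without Null_1195 (adjusted p = 0.00589), -0.31 without Null_1191 (adjusted p = 0.452) and -0.56 when its probe sets were averaged (adjusted p = 0.037). The position of its probe sets relative to the loxP sites was not given in the sources used here. Of 5 hepatocyte markers measured, 3 fell (Ttr, Serpina1b and Apoa1), beside 7.85% of all genes. Alb and Afp, both near the top of the range on every array, did not pass the test. In whole livers, fewer hepatocytes and less RNA per hepatocyte cannot be told apart. Null_61 and Control_8 carry title numbers outside the run of the other 4 and read 33.5 and 42.1 in the probe set for the 5' end of 18S ribosomal RNA, against 449 to 616. Among the 4 other arrays alone, 6 of the 8 urea cycle genes fell, all but Ass1 and Cps1, beside 8.60% of all genes. The difference of Null_61 from Control_8 had the same sign as the change in those 4 arrays for all 8 genes. Its log2 values were -4.62 for Otc, -2.12 for Asl, -1.78 for Slc25a13, -1.74 for Arg1 and -1.11 for Cps1. They were smaller for Slc25a15 (-0.62) and Nags (-0.53), and Ass1 hardly differed in the pair (0.02). By Xist and Y-linked probe sets, both nulls among those 4 arrays read as female and both controls as male. Sex and genotype cannot be told apart there, nor in the pair, where Null_61 read as male and Control_8 as female. Over all genes 1428 fell and 283 rose, and with quantile normalization 1196 fell and 616 rose.

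Genes that handle ammonia and glutamine beside the cycle were changed in part. Of 8 measured, 3 fell and 0 rose, beside 7.85% and 1.56% of all genes, with a median log2 change of -0.26. Slc38a3, a glutamine transporter of the hepatocyte membrane, averaged 138 ± 14.4 in null livers and 1627 ± 155 in control livers, a 9.78-fold fall (adjusted p = 1.04e-06), while its dimmer probe set 1446013_at did not pass the test (log2 change 0.02). Car5a, the mitochondrial carbonic anhydrase that supplies bicarbonate to CPS1, read 24.5, 20.7 and 11.1 in Null_61, Null_1191 and Null_1195, against 492, 180 and 236 in Control_8, Control_1192 and Control_1193 (log2 change -2.62, adjusted p = 0.000807). Every null was near the background, and Control_8 stood above the other controls. Rhbg, an ammonia channel, was dim in both groups, at 37.5 ± 9.49 in null livers and 96.9 ± 14.1 in control livers (log2 change -0.89, adjusted p = 0.00726). Glud1, whose product releases ammonia from glutamate, had a log2 change of -0.02 (adjusted p = 0.929). Car5b, the other mitochondrial carbonic anhydrase, had a log2 change of -0.02 too (adjusted p = 0.948). It was below the array medians in both groups, at 85.2 ± 13.0 in null livers and 86.3 ± 0.97 in control livers.

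A list of 10 genes covered aspartate, malate and transamination, among them alanine aminotransferases and a dicarboxylate carrier. Of these, 3 fell and 0 rose, beside 7.85% and 1.56% of all genes, with a median log2 change of -0.32. Got2 and Got1, the mitochondrial and cytosolic aspartate aminotransferases, fell 2.76-fold and 2.53-fold. Got2 averaged 1155 ± 232 in null livers and 3211 ± 162 in control livers (adjusted p = 0.000304). Its probe set 1417716_at fell as well, and 2 dim ones did not pass the test. Got1 averaged 260 ± 16.4 in null livers and 706 ± 44.8 in control livers (adjusted p = 0.000121). Slc25a11, the carrier of malate and 2-oxoglutarate, averaged 265 ± 35.7 in null livers and 468 ± 19.1 in control livers (1.69-fold lower, adjusted p = 0.00669). Together with Slc25a13, these genes are parts of the malate and aspartate shuttle. Mdh2, the mitochondrial malate dehydrogenase, did not pass the test (log2 change -0.14, adjusted p = 0.484). Among the 4 arrays other than Null_61 and Control_8, 4 of these 10 genes fell, beside 8.60% of all genes.

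Other uses of ornithine, arginine and carbamoyl phosphate were covered by 16 genes, of which 3 fell and 0 rose, beside 7.85% and 1.56% of all genes, with a median log2 change of -0.07. Agmat, annotated as agmatinase, averaged 70.4 ± 13.7 in null livers and 787 ± 56.6 in control livers (log2 change -3.01, adjusted p = 3.07e-06). Gamt, the last enzyme of creatine synthesis, averaged 292 ± 40.7 in null livers and 878 ± 79.1 in control livers, a 2.82-fold fall (adjusted p = 0.000188). Gatm, the first enzyme of creatine synthesis, had a log2 change of 0.25 (adjusted p = 0.332). Slc7a2, a transporter of cationic amino acids, averaged 871 ± 174 in null livers and 1462 ± 148 in control livers (1.67-fold lower, adjusted p = 0.0201). Of its 3 dimmer probe sets 2 fell. The Slc7a2 call was lost without Control_8, Control_1192, Control_1193 or Null_1191 (adjusted p from 0.0534 to 0.089), and within the 4 arrays other than Null_61 and Control_8, 2 of the 16 genes fell, beside 8.60% of all genes. Oat, ornithine aminotransferase, and Odc1, ornithine decarboxylase, had log2 changes of -0.18 and 0.19 and did not pass the test. Cad, which makes carbamoyl phosphate for pyrimidines in the cytosol, had a log2 change of 0.15 (adjusted p = 0.582).

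Of 11 measured regulators known to act on urea cycle genes or enzymes, 3 fell and 0 rose, beside 7.85% and 1.56% of all genes, with a median log2 change of -0.48. Cebpa, the C/EBP factor that activates several urea cycle promoters, read 414, 404 and 573 in Null_61, Null_1191 and Null_1195, against 1524, 1550 and 1613 in Control_8, Control_1192 and Control_1193. It fell 3.25-fold (adjusted p = 0.00012), with Null_1195 the highest null. Null_1195 was the highest null in 5 of the 8 urea cycle genes and the lowest in Asl and Nags. A link between Cebpa and their order was not tested. Cebpb, its paralog, averaged 512 ± 56.8 in null livers and 499 ± 53.0 in control livers (log2 change 0.03, adjusted p = 0.913). Sirt3, a mitochondrial deacetylase that acts on the OTC protein, averaged 98.4 ± 10.6 in null livers and 507 ± 62.6 in control livers (log2 change -2.04, adjusted p = 2.37e-05). Nr3c1, the glucocorticoid receptor, averaged 231 ± 10.5 in null livers and 378 ± 35.5 in control livers (1.56-fold lower, adjusted p = 0.0124). Its 5 other probe sets did not pass the test, and the call was lost without Control_8 or Control_1192 (adjusted p = 0.0607 and 0.0684). Sirt5, a mitochondrial deacylase that acts on CPS1, and Ppargc1a, a coactivator of fasting genes, had log2 changes of -0.20 and -0.07 and did not pass the test.

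**Figure D4:**
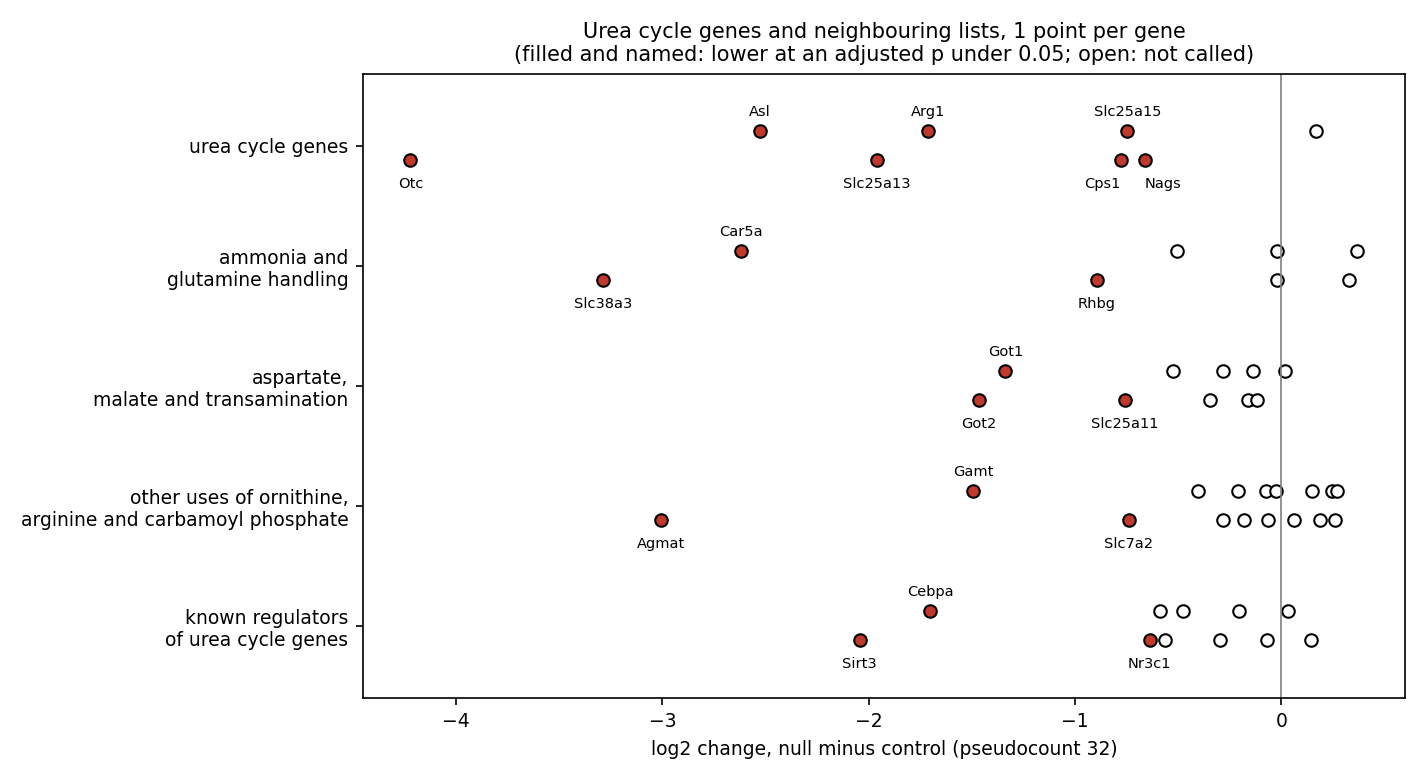
Log2 change, null minus control with a pseudocount of 32, of each gene in the urea cycle and in 4 neighbouring lists, 1 point per gene (its brightest probe set). Filled and named points fell and 0 points rose past the test, beside 7.85% and 1.56% of all genes. In the urea cycle 7 of 8 fell, in ammonia and glutamine handling 3 of 8, and in aspartate, malate and transamination 3 of 10. Among other uses of ornithine, arginine and carbamoyl phosphate 3 of 16 fell, and among the regulators 3 of 11.

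The genes most like the urea cycle genes in pattern were found by the root mean square difference from their median log2 profile over the 6 arrays, among 12352 other genes above the median level. The 5 closest were Apoh, Dbi, Marveld2, Epas1 and Flvcr2, at distances from 0.0626 to 0.0875 log2 units. Apoh, the plasma beta-2-glycoprotein, averaged 3428 ± 560 in null livers and 8506 ± 357 in control livers. Dbi, an acyl-CoA-binding protein, averaged 1762 ± 414 in null livers and 4295 ± 343 in control livers. Likeness over 6 arrays in 2 groups is a description only.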

How the data were processed

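Total RNA of 6 fetal livers was isolated on spin columns and biotin-labelled for standard Affymetrix arrays, per the labels' protocols. The deposited values are linear probe-set intensities, of which 0.908% to 1.34% per array lie below 0, so some background had been subtracted. How the authors summarised probes, scaled arrays and with which software was not given in the sources used here. Array medians of log2 values differed by at most 0.0877, under a tolerance of 0.2, so the deposited scaling was kept. Negative values were raised to 0 and log2(value + 32) was used. Of 45101 probe sets 64 control ones were left out. The platform annotation gave 1 symbol to 34945 probe sets, several to 932 and none to 9160, and the members' symbols matched RefSeq (GRCm38.p6) by Entrez number. No 2 arrays were identical.

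Null and control arrays were compared in R 4.3.3 by limma 3.58.1 (lmFit, eBayes with an intensity trend, all 6 arrays, no covariate, two-sided), with Benjamini-Hochberg adjustment over all probe sets at 0.05. The fit was tested on simulated data with independent noise and no sex, litter or run effects, so that test does not cover such effects. An exact permutation test of 3 against 3 has a smallest p of 0.1 and was not used. Named were all urea cycle genes, called members of 3 neighbouring lists, paralogs, called regulators with Hnf4a, and the 5 genes closest in pattern. Further members that did not pass the test (Glud1, Car5b, Mdh2, Gatm, Oat, Odc1, Cad, Cebpb, Sirt5 and Ppargc1a) were named after their values were seen. The members and lists were chosen with earlier results of these data known. The number of arrays limits the precision. Gls2 and some other listed genes were not analysed here. Of the marker lists for other cells, 3 of 6 endothelial genes fell and 0 of 4 erythroid, 6 neutrophil, 6 mesenchymal and 4 biliary genes were called. Over all genes 7.85% fell and 1.56% rose, so 0 calls in lists this short do not show that these cells were unchanged.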

Additional observations from a re-analysis of the deposited data

How the results depend on the processing

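The alternatives were quantile normalization, medians centred per array, pseudocounts of 1 and 100, a filter at the median level, array weights, a fit with no intensity trend, the mean of a gene's probe sets, the title-number run as a block, the 4 arrays other than Null_61 and Control_8, embryo sex as a covariate, and each array left out in turn. Within those 4 arrays, embryo sex could not be told apart from genotype. No paired analysis was possible because the groups share no title numbers. The number of urea cycle genes that fell was 7, lay between 5 and 7 with an array left out and between 5 and 7 in the other alternatives, and was 4 when a change of at least 2-fold was also required. The number of probe sets that fell was 9, and lay between 7 and 9 in the alternatives fitted on probe sets with no requirement on the size of the change. Otc, Asl, Arg1, Slc25a13 and Slc25a15 kept their calls in all 17 alternatives run on them. Ass1, read by 1459937_at alone and without the bright probe set of 2 symbols, was called in 0. Cps1 lost its call in 9 and Nags in 6, in each case with the same direction. With all arrays kept, those were quantile normalization (adjusted p = 0.0772), a pseudocount of 1 (0.0635), no intensity trend (0.0719) and embryo sex (0.0514) for Cps1, and embryo sex (0.06) for Nags. With the run as a block, adjusted p-values were 0.00874 for Cps1 and 0.00555 for Nags. The size of falls to the background depends on the pseudocount and the probe sets: the log2 change of Otc ran from -5.08 to -3.28. Over all genes the number that rose, 283, became 616 with quantile normalization, 613 with array weights, 747 with the block, 170 with sex and 98 to 558 with an array left out. The number that fell, 1428, became 906 without Control_1192, 1895 with array weights and 2021 with the block. The cause of these shifts was not tested.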

Other observations

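Several neighbouring genes were read differently by different probe sets. Glul, glutamine synthetase, averaged 1814 ± 278 in null livers and 2574 ± 244 in control livers in its brightest probe set, 1426236_a_at, which narrowly missed the test (log2 change -0.50, adjusted p = 0.0551). Its probe set 1426235_a_at averaged 521 ± 90.4 in null livers and 1315 ± 232 in control livers and fell 2.43-fold (adjusted p = 0.00179). Mdh1, the cytosolic malate dehydrogenase, did not pass the test in its brightest probe set (log2 change -0.52, adjusted p = 0.138), while its probe set 1448172_at averaged 1063 ± 103 in null livers and 1905 ± 82.3 in control livers (adjusted p = 0.00188). Gpt2, the mitochondrial alanine aminotransferase, had a log2 change of -0.12 in its brightest probe set (adjusted p = 0.771), and 2 of its 3 others fell, with log2 changes of -0.93 for 1455007_s_at and -0.59 for 1438385_s_at. These probe sets were singled out after their values were seen, and none of the 3 genes is counted among the falls above.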
